A study of Mus musculus with 6 samples.

Results

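The CREB family and its coactivators were followed as 9 genes, Creb1, Atf1, Crem, Crtc1, Crtc2, Crtc3, Crebbp, Ep300 and Creb3l2, in left ventricles of WT and Glut1-TG mice. A probe set, the group of short probes that reads 1 transcript on an Affymetrix array, was taken as a member if the platform annotation gave it exactly 1 gene symbol and that symbol was 1 of the 9. This rule found 24 probe sets of 8 genes among 45037 probe sets in all. Atf1 had 0, because the probe set that names it also names a pseudogene, and no value is given for it. Glut1-TG mice carry a human Glut1 transgene driven by the alpha-myosin heavy chain promoter, which is active in cardiomyocytes, and WT hearts came from wild type mice. All were FVB males of 11 to 12 weeks on standard chow, with 3 arrays per group. The labels do not say whether an array holds RNA of 1 heart, so that p-values measure the spread between these arrays.

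CREB is a transcription factor of the leucine zipper class that binds the cyclic AMP response element (CRE) in promoters. Protein kinase A and other kinases phosphorylate it when cyclic AMP or calcium rises, and the phosphorylated form recruits the histone acetyltransferases CBP, encoded by Crebbp, and p300, encoded by Ep300. The CRTC coactivators are held in the cytoplasm by phosphorylation through salt-inducible kinases and enter the nucleus after dephosphorylation by calcineurin. In the heart this route is among those that respond to beta-adrenergic signals. Much of CREB activity is thus set by phosphorylation and location, which an RNA array does not read. The study asked how glucose acts on CREB at the Klf15 promoter, and the comparison of the arrays asks whether the transcripts of the factors and coactivators themselves differed between WT and Glut1-TG hearts.

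The promoter of Klf15, the gene that the study places under CREB, is shown beside those of Creb1 and Creb3l2, since their windows do and do not hold the core of a CRE. Windows of 300 bases around a RefSeq start site, 250 before and 50 after it, were searched on both strands. The search was for the full palindromic CRE, TGACGTCA, and for its core, TGACG or its complement CGTCA. Both forms of the core lie within the full element. Of the 9 genes, 7 had an entry, and 0 held the full element, which was in 1.79% of 32851 promoter windows. The core was in 2 of the 7, Atf1 and Creb3l2, and in 20.8% of all windows. The window of Klf15 held 2 cores, starting 78 and 6 bases before the start site, and that of Creb3l2 held 1, starting 196 bases before it. The 250 bases before each start site are printed 5′ to 3′ on the strand of the gene in build GRCm38.p6, with cores in capitals. They lie at chr6:90462326-90462575 (plus strand) for Klf15, at chr6:37442149-37442398 (minus strand) for Creb3l2 and at chr1:64532554-64532803 (plus strand) for Creb1. The start site used for Klf15 is internal to its RefSeq span (chr6:90461043-90491803), so that its printed bases lie within the gene. Those of Creb3l2 lie partly within its span (chr6:37327255-37442276), and of Creb1 only the last bases do.
Klf15: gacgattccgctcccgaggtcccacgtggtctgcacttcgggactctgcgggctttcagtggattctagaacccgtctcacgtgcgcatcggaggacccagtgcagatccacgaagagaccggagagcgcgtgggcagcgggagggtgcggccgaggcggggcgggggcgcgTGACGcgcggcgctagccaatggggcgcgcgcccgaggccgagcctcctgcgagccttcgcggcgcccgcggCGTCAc
Creb3l2: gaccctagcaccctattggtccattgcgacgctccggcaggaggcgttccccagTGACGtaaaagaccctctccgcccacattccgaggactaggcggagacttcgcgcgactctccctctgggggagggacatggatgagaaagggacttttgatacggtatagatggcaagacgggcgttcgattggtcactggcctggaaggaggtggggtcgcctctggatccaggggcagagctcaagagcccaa
Creb1: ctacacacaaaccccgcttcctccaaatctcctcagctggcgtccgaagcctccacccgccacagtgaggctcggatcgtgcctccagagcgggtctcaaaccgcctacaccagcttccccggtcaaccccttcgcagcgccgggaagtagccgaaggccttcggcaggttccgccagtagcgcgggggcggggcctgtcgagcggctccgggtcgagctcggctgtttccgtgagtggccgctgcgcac
A match of letters is a description of the window and not a measured site, and the region upstream of these windows was not searched. The study placed its candidate CREs in the distal part of its Klf15 promoter construct, where ChIP in neonatal rat cardiomyocytes showed CREB bound. In these cultured cells, constructs without that part no longer responded to high glucose. The study's start site was not matched to the one used here, so that the cores printed for Klf15 are not equated with its CREs.

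Signals are linear intensities, as scaled by the authors to a common trimmed mean of 500 per array, and tests were made on log2 signal. Where a gene had several probe sets, the one whose log2 signal averaged highest over the arrays stood for it. The lower 40% of probe sets (signals under 115) were not tested, and 13178 genes remained. All 8 genes with a probe set passed this filter through their representative probe set, as did 16 of the 24 probe sets. By limma, 0 of the 8 genes rose or fell in Glut1-TG hearts at an adjusted p under 0.05, where 0.857% of all genes tested passed (0.258% higher and 0.599% lower). At an unadjusted p under 0.05 there was 1, Creb1, which was lower (11.3% of all genes, 5.81% lower and 5.47% higher). By the methods' t-test, 0 passed once p-values were adjusted after Benjamini and Hochberg. That test passed only 1 of all 13178 genes, so that the count of 0 says nothing about the CREB genes. The groups did not overlap in 2 of the 8 genes, Creb1 and Creb3l2, both lower (17.4% of all genes, 8.77% lower and 8.67% higher). Differences are given as Glut1-TG minus WT on the log2 scale. Their median over the 8 genes was -0.06, with 4 of 8 below 0, beside a median of 0.02 and 47% below 0 among all genes tested. At the study's thresholds, which combine a minimum fold with an unadjusted p from the methods' t-test, Creb1 alone of the 8 passed (5.86% of all genes). The number of arrays limits the precision, and a difference that misses the threshold does not show equal levels, so that 95% confidence intervals are given.

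**Figure D1:**
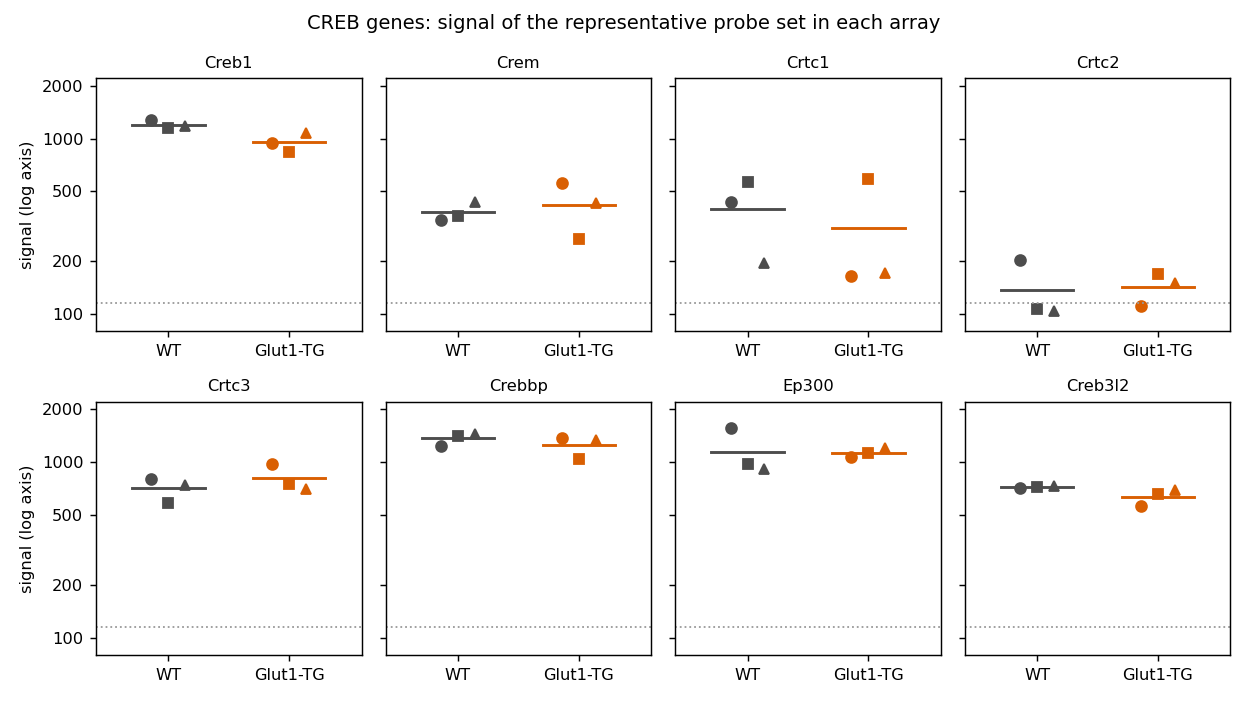
Signal (log axis) of the representative probe set of each of the 8 CREB genes in 3 WT (grey) and 3 Glut1-TG (orange) arrays, with circles, squares and triangles for replicates 1, 2 and 3, a line at the mean and a dotted line at the filter's signal of 115. The groups are apart in Creb1 and Creb3l2 and overlap in the other genes.

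The arrays shared a trimmed mean of 500 but differed in their median signal over all probe sets, 171 to 213, the highest being Glut1-TG replicate 1. Median centring, an alternative given in the closing section, moved the median log2 difference of all genes from 0.02 to -0.08. Over the 24 member probe sets, the highest of the 6 signals was in Glut1-TG replicate 1 for 8 and in WT replicate 1 for 6, and the lowest in Glut1-TG replicate 2 for 9, Glut1-TG replicate 1 for 7 and WT replicate 3 for 6. All 14 markers of cardiomyocytes passed the filter, and 13 had log2 differences below 0 (47% of all genes), with a median of -0.19. Of the 14, 0 passed limma (0.857% of all genes) and 4 had an unadjusted p under 0.05 (11.3% of all genes). Their summed signal was 535973 to 637265 in WT and 507877 to 521156 in Glut1-TG arrays. After quantile normalization, which gives all arrays the same distribution of signal, their median was -0.01. Of the 14, 10 still lay below 0, beside 6514 of 13184 among all genes. In whole tissue, fewer cells of a type and less RNA per cell cannot be told apart. Of 4 atrial cardiomyocyte markers 3 were tested, and 2 rose, the atrial myosin light chains Myl4 (400, 278 and 430 in WT and 1036.5, 1697 and 1038 in Glut1-TG arrays, log2 difference 1.75, adjusted p = 0.0085) and Myl7 (26.5, 90.5 and 14.2 in WT and 378, 713 and 315 in Glut1-TG arrays, log2 difference 3.76, adjusted p = 0.041). Among all genes tested, 0.258% rose. The WT signals of Myl7 lay under the filter's 115, where the size of a fold is not determined. Myl7 passed the filter only through its Glut1-TG signals, so that nothing is drawn from its test. Nppa, the third, had -0.07, and the summed signal of the 3 was 5083 to 6004 in WT and 5197 to 8615 in Glut1-TG arrays. Of 6 lymphocyte markers 4 were tested, with summed signals of 1097 to 1283 in WT and 1447 to 1573 in Glut1-TG arrays. Among these 4, 0 passed limma and 1 was higher at an unadjusted p under 0.05 (5.47% of all genes). Lists for fibroblasts, endothelium, smooth muscle, macrophages, erythroid cells, adipocytes and skeletal muscle were also read, with 0 genes past limma. The last 3 lists had 1 tested gene each. The part of the marker lists in the values of the CREB genes was not tested. The 3 probe sets annotated to mouse Slc2a1 disagreed, and whether any of them reads the human transgene is not settled here, so that they are no check of the labels. Their signals went from 489 ± 70.0 to 787 ± 55.4 (1426600_at), from 327 ± 75.5 to 143 ± 27.3 (1426599_a_at) and from 414 ± 14.4 to 88.6 ± 33.5 (1434773_a_at) (mean ± SD, n = 3). Of these, only the fall of the last passed limma over 22551 probe sets (adjusted p = 0.023). Klf15 had signals of 2096, 2225 and 2106 in WT and of 1510, 1534 and 1488 in Glut1-TG arrays, a fall by 0.50 on the log2 scale that passed limma over genes (adjusted p = 0.039) and not over probe sets (adjusted p = 0.054).

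Creb1, which encodes CREB itself, lies at chr1:64532794-64604548 in GRCm38.p6. Its representative probe set, 1428755_at, had signals of 1277, 1155 and 1172 in WT replicates 1 to 3 and of 938, 843 and 1074 in Glut1-TG replicates 1 to 3. The groups did not overlap, with a gap between the lowest WT and the highest Glut1-TG value that was narrower than the range within either group. WT arrays averaged 1201 ± 65.7 and Glut1-TG arrays 952 ± 116 (SD, n = 3 each). This log2 difference of -0.34 (95% confidence interval -0.62 to -0.06, standard error 0.13) did not pass limma (adjusted p = 0.35). It equals 0.789 times the WT level (95% confidence interval 0.650 to 0.959). The adjusted p ran from 0.26 to 0.99 over 18 alternatives. With 1 array left out the difference ran from -0.43 to -0.26, and after median centring it was -0.44. Of the 5 other probe sets of Creb1, 3 lay below 0 and 2 above, and none passed; differences between probe sets were not tested. Probe set 1452901_at, which the annotation draws from the same source sequence, had 841, 1060 and 976 in WT and 968, 721 and 925 in Glut1-TG arrays. Its groups overlapped, with a log2 difference of -0.14 (95% confidence interval -0.49 to 0.20) that did not pass limma over 22551 probe sets (adjusted p = 0.79). Probe set 1423402_at ran the other way, with 131, 212 and 132 in WT and 395, 201 and 236 in Glut1-TG arrays. Glut1-TG replicate 1 was the highest, and WT replicate 2 lay above Glut1-TG replicate 2, so that the groups overlapped. Its log2 difference of 0.78 (standard error 0.36) did not pass (adjusted p = 0.49). Averaged over its 6 probe sets, Creb1 had a log2 difference of 0.02, against -0.34 for the representative probe set. This mean includes probe sets under the filter, for which the size of a fold is not determined. The 3 further probe sets lay under the filter, with mean signals of 21.4 to 110 in either group and log2 differences of 0.35 (1421583_at), -0.43 (1452529_a_at) and -0.08 (1421582_a_at), and all overlapped between groups.

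**Figure D2:**
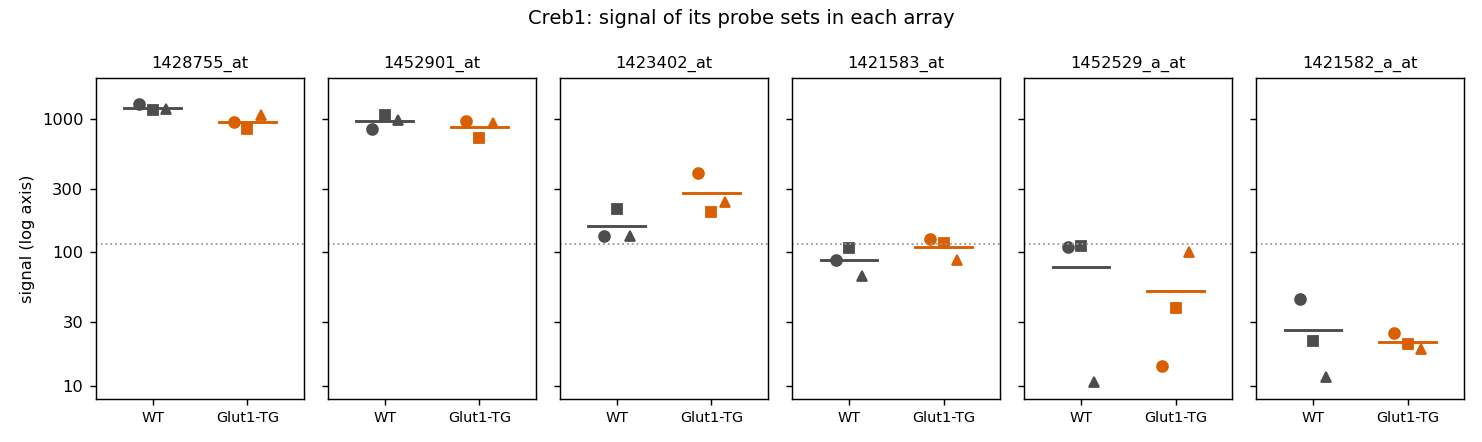
Signal (log axis) of the 6 probe sets of Creb1 in 3 WT (grey) and 3 Glut1-TG (orange) arrays, with circles, squares and triangles for replicates 1, 2 and 3, a line at the mean and a dotted line at the filter's signal of 115. The groups are apart in 1428755_at, where Glut1-TG is lower, while 1423402_at had a mean of 158 in WT and 277 in Glut1-TG and overlaps.

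The patterns most like that of Creb1 over the 6 arrays, by Pearson correlation of log2 signal among the genes tested, were those of Pex16, a peroxisome assembly factor (r = 0.99), Man1c1, a mannosidase of the Golgi (r = 0.98), and Ccdc177 (r = 0.98). A total of 150 genes exceeded r = 0.9, and the 6 points share the difference between the groups. None of the 3 passed limma (adjusted p = 0.33, 0.41 and 0.17).

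Crem encodes activators and repressors of the CREB class, among them ICER, a short repressor made from an internal promoter that CREB itself induces. Its representative probe set, 1449037_at, had 342, 361 and 436 in WT and 557, 267 and 430 in Glut1-TG arrays. Glut1-TG replicates 1 and 2 were the highest and the lowest of the 6, so that the WT values lay within the Glut1-TG range. The log2 difference was 0.08 (95% confidence interval -0.52 to 0.69, standard error 0.27, adjusted p = 0.94), and it was -0.15 without Glut1-TG replicate 1. A second probe set, 1418322_at, showed the same order of the Glut1-TG arrays, with 283, 270 and 300 in WT and 397, 194 and 354 in Glut1-TG hearts (log2 difference 0.09, adjusted p = 0.95). Probe set 1430598_at lay near the bottom of the array's range, with 14.0, 6.20 and 5.90 in WT and 114, 18.6 and 43.8 in Glut1-TG arrays. All Glut1-TG values were above all WT values, 1 of 3 member probe sets without overlap between groups among the 24 (14.4% of all probe sets with 1 symbol). Its fitted log2 difference of 2.50 did not pass (adjusted p = 0.43 over 34945 probe sets), and at signals under 115 the size of a fold is not determined. The fourth, 1430847_a_at, ranged from 22.1 to 199 and overlapped.

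Creb3l2 encodes a CREB-like factor that is anchored in the endoplasmic reticulum membrane and released by cleavage, and differs from CREB in this activation. Probe set 1452381_at had 716, 724 and 729 in WT and 565, 656 and 693 in Glut1-TG arrays. The WT values lay close together and all Glut1-TG values were below them. The difference was -0.19 on the log2 scale (standard error 0.14, 95% confidence interval -0.50 to 0.12, adjusted p = 0.65), and -0.25 to -0.10 with 1 array left out. Its other probe set, 1437396_at, had 247, 243 and 301 in WT and 234, 330 and 306 in Glut1-TG arrays, and here the Glut1-TG arrays held the lowest and the highest value (log2 difference 0.13, adjusted p = 0.89).

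Among the CRTC coactivators, which bind the leucine zipper of CREB and raise its activity, none passed. Crtc1, the form best known from neurons, had 435, 565 and 196 in WT and 165, 592 and 172 in Glut1-TG arrays (1434476_at). Its values varied more widely within each group than the group means differed. The means were 399 in WT and 310 in Glut1-TG arrays, with SDs of 187 and 244 (n = 3 each). The log2 difference was -0.51 with a 95% confidence interval of -1.68 to 0.67 (adjusted p = 0.77), and it ran from -1.11 to -0.19 when 1 array was left out. At 0.311 to 1.59 times the WT level, this interval leaves the level of Crtc1 poorly determined. The probe sets 1446533_at and 1458443_at had log2 differences of 0.08 and -0.08.

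Crtc2, the form that drives fasting gene expression in liver, was near the filter, with 203, 107 and 105 in WT and 111, 170 and 150 in Glut1-TG arrays (1429373_x_at). WT replicate 1 was the highest of the 6 and the groups overlapped. The log2 difference was 0.11 (95% confidence interval -0.86 to 1.07, adjusted p = 0.95), which is 0.552 to 2.10 times the WT level. The name of this probe set marks probes that may read related transcripts, as does that of 1424660_s_at, which lay under the filter with 43.2 to 171 and a log2 difference of 0.10.

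Crtc3, the remaining CRTC coactivator, had 800, 588 and 740 in WT and 977, 751 and 708 in Glut1-TG arrays (1436379_at). Glut1-TG replicate 1 was the highest, and the other Glut1-TG arrays lay within the WT range. The means differed by 0.19 on the log2 scale (standard error 0.17, 95% confidence interval -0.20 to 0.58, adjusted p = 0.73), and ran from 0.052 to 0.29 with 1 array left out, the lowest being without Glut1-TG replicate 1. Its second probe set, 1451778_at, had a log2 difference of -0.13 (adjusted p = 0.90), with 270, 361 and 339 in WT and 241, 261 and 401 in Glut1-TG arrays.

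CBP and p300, the acetyltransferases that CREB recruits, stood last in this route. Crebbp had 1239, 1418 and 1453 in WT and 1371, 1042 and 1333 in Glut1-TG arrays (1435224_at). Only Glut1-TG replicate 2 lay below the WT range. The groups differed by -0.14 on the log2 scale (standard error 0.13, 95% confidence interval -0.44 to 0.16, adjusted p = 0.74), or 0.737 to 1.12 times the WT level. With 1 array left out it ran from -0.21 to -0.016, the latter without Glut1-TG replicate 2. Its second probe set, 1436983_at, had 1073, 932 and 938 in WT and 1071, 892 and 999.7 in Glut1-TG arrays, a log2 difference of 0.01 (95% confidence interval -0.27 to 0.29, adjusted p = 0.99). The third, 1434633_at, had 373, 427 and 379 in WT and 92.3, 381 and 310.5 in Glut1-TG arrays. Here Glut1-TG replicate 1 lay far below the other 5 arrays, and the log2 difference of -0.82 did not pass (adjusted p = 0.57). The fourth, 1459804_at, lay under the filter, where 2 Glut1-TG arrays had 11.0 and 6.0 and the other 98, beside 79.4 to 110.5 in WT (fitted log2 difference -2.35, adjusted p = 0.55 over 34945 probe sets). With the mean of the 4 in place of the representative the log2 difference was -0.83 (adjusted p = 0.39), a value that includes 1459804_at, for which the size of a fold is not determined.

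Ep300, with 1 probe set, had 1560, 980 and 910.5 in WT and 1069, 1129 and 1205 in Glut1-TG arrays (1434765_at). The Glut1-TG values lay within the WT range, which was wide because of WT replicate 1. This gave a log2 difference of 0.02 (standard error 0.19, 95% confidence interval -0.40 to 0.44, adjusted p = 0.98), or 0.758 to 1.36 times the WT level.

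Taken by probe set, 0 of the 16 past the filter passed limma, where 0.448% of 22551 probe sets did, and 1 reached an unadjusted p under 0.05 (10.3% of all). Of the 16, 2 had groups that did not overlap (16.4% of all), and 7 had log2 differences below 0. Without the filter, 0 of the 24 passed (0.243% of 34945) and 3 reached an unadjusted p under 0.05 (8.62% of all), namely 1428755_at of Creb1, 1430598_at of Crem and 1459804_at of Crebbp, of which the last 2 lie under the filter.

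**Figure D3:**
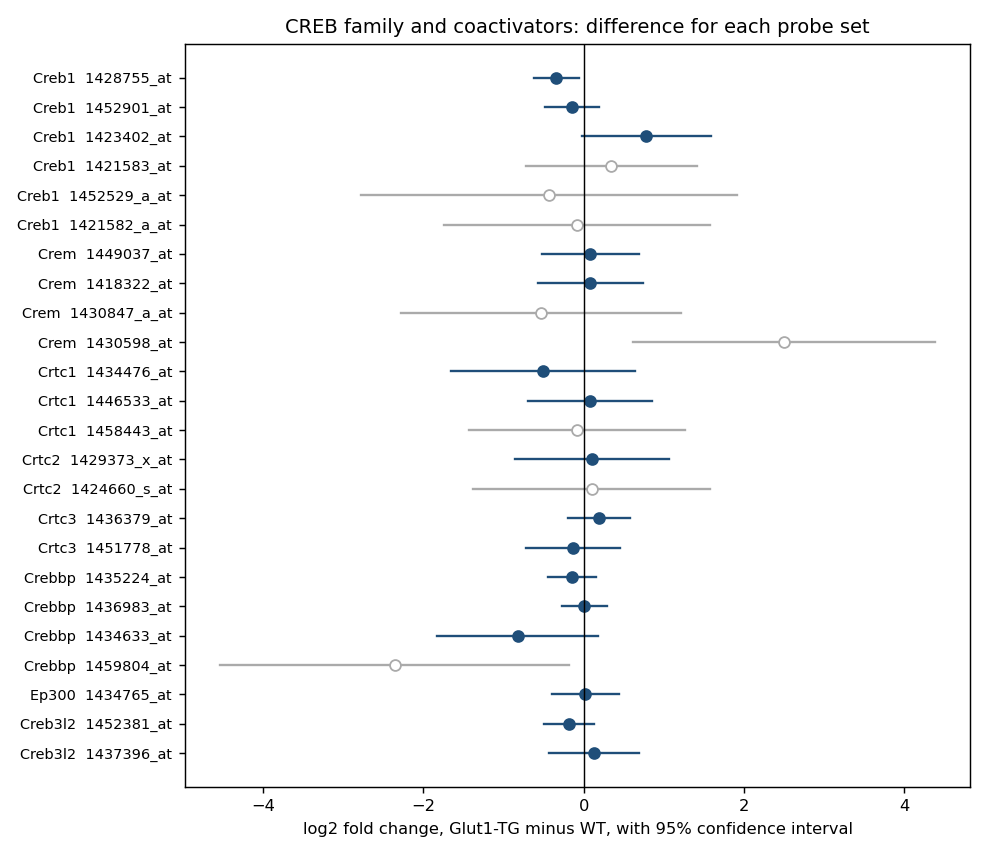
Difference in log2 signal between Glut1-TG and WT (horizontal axis) for each of the 24 member probe sets, with bars for the 95% confidence interval from the limma fit over all probe sets with 1 symbol. Filled blue points are the 16 probe sets past the filter and open grey points the 8 under it. Of the 16, the interval of Creb1 1428755_at alone leaves out 0.

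The genes around CREB were read from the same fit, in lists written from general knowledge but with earlier results of these data known. Of all genes tested, 0.857% passed limma. Each listed gene is given by its representative probe set alone, and its other probe sets were not compared. Those of Prmt5, Hdac3 and Nono carry names that mark probes that may read related transcripts. Of 13 tested genes of the other CREB and ATF factors, 0 passed limma, 1 reached an unadjusted p under 0.05 (11.3% of all genes), and 7 lay below 0 (median -0.06). Atf3, a stress-induced repressor, had 328, 480 and 295 in WT and 270, 195 and 248.5 in Glut1-TG arrays. All its Glut1-TG values were below all WT values, with a log2 difference of -0.61 (standard error 0.27, adjusted p = 0.43). Atf6b and Atf5, a membrane-anchored factor of the unfolded protein response and a factor of the mitochondrial stress response, had -0.64 and -0.19 (adjusted p = 0.50 and 0.53), and Crebrf, a regulator of Creb3, had 0.15 (adjusted p = 0.71).

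Of 24 tested kinases and phosphatases of CREB and their subunits, 0 passed limma (0.857% of all genes). An unadjusted p under 0.05 was reached by 0 of the 24 (11.3% of all genes). Their log2 differences ran from -0.26 to 0.34 with a median of -0.00067. Prkar1a and Prkar1b, regulatory subunits of protein kinase A, had log2 differences of -0.14 and 0.34 (adjusted p = 0.53 and 0.49). The groups did not overlap in 3 of the 24 (17.4% of all genes), Prkar1a and Akt1 lower and Prkar1b higher. Akt1, a growth factor kinase that can phosphorylate CREB, had -0.21 (adjusted p = 0.45), and Pkig, an inhibitor of protein kinase A, had 0.16 (adjusted p = 0.52).

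Of 21 tested regulators of the CRTC coactivators, 0 passed limma, while at an unadjusted p under 0.05 there were 1 higher and 3 lower, beside 11.3% of all genes. The groups did not overlap in 1 higher and 6 lower genes of the 21, beside 8.67% higher and 8.77% lower among all genes. Ppp3cb, a catalytic subunit of calcineurin, had 2947, 3107 and 3200.1 in WT and 2374, 2769 and 2675 in Glut1-TG arrays. Its log2 difference was -0.25 (standard error 0.09, adjusted p = 0.37). Ogt, the enzyme that adds O-GlcNAc to proteins and modifies CRTC2, had 2586, 2562 and 2492 in WT and 1945, 2064 and 2393 in Glut1-TG arrays. Its groups did not overlap, and its log2 difference was -0.26 (standard error 0.10, adjusted p = 0.37). Sik1, a salt-inducible kinase, had 844, 978 and 1047 in WT and 843, 586 and 788 in Glut1-TG arrays (log2 difference -0.38, adjusted p = 0.43). Its highest Glut1-TG value and its lowest WT value were nearly equal. Prmt5, an arginine methyltransferase that works with CRTC2, had 1081, 1091 and 1044 in WT and 1382, 1192 and 1503 in Glut1-TG arrays (log2 difference 0.34, adjusted p = 0.34).

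Of 17 tested partners of CBP and p300 and other coactivators or deacetylases, 0 passed limma, 11 lay below 0 (median -0.06), and of 3 with an unadjusted p under 0.05 (11.3% of all genes) there was 1 higher. Fhl1, a LIM-only protein of the sarcomere, had a log2 difference of -0.36 (adjusted p = 0.34), and Nono, a nuclear RNA-binding partner of the CRTC proteins, had -0.32 (adjusted p = 0.46). The deacetylases Hdac3 and Hdac5 had -0.23 and 0.21 (adjusted p = 0.42 and 0.43), each without overlap of the groups.

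Of 26 tested genes known to be induced through CREB, 0 passed limma, the 2 with an unadjusted p under 0.05 (11.3% of all genes) were both lower, and 19 lay below 0 (47% of all genes). Their median log2 difference was -0.15, where that of all genes was 0.02. Nfil3, a transcriptional repressor, had 408, 488 and 630.1 in WT and 274, 283 and 293 in Glut1-TG arrays. The Glut1-TG values lay close together and below all WT values, with a log2 difference of -0.82 (standard error 0.21, adjusted p = 0.16). Sik1, which is both a target and a regulator, stands among the CRTC regulators above. Crem, a member, and Cited2, a listed partner, also count among the targets, so that the lists share genes. The immediate early genes Egr1 and Dusp1 had log2 differences of -0.42 and -0.24 (adjusted p = 0.51 and 0.52) with overlapping groups. After quantile normalization the medians of the targets and of the 8 CREB genes were -0.17 and -0.06. The medians of the kinases, the CRTC regulators and the partners, -0.00067, -0.05 and -0.06, turned to 0.03, 0.0065 and 0.0040.

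**Figure D4:**
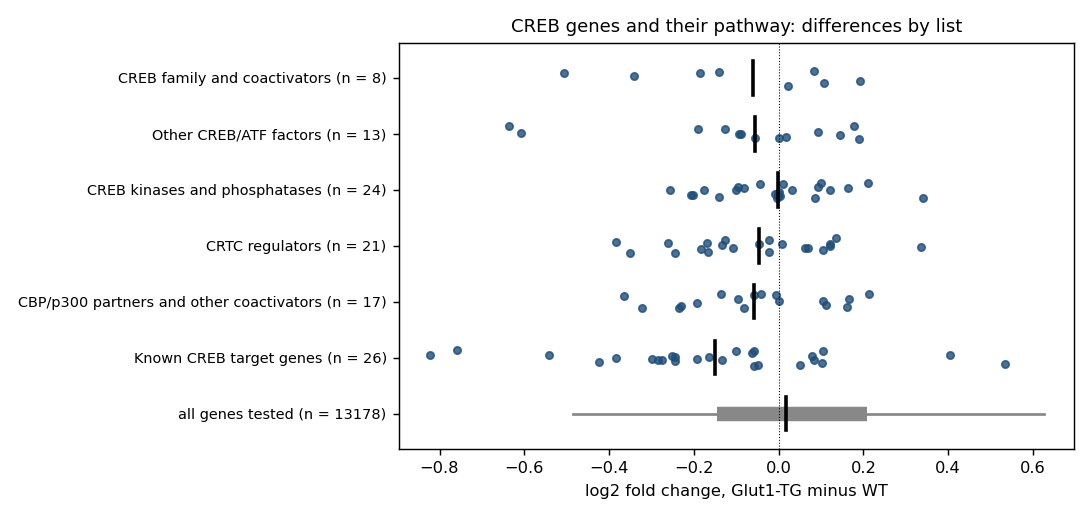
Difference in log2 signal between Glut1-TG and WT (horizontal axis) for every tested gene of the CREB family and of 5 lists of related genes, as 1 point per gene (spread vertically for sight) with a black line at the median, and for all 13178 genes the range from the 5th to the 95th percentile (thin bar) and from the 25th to the 75th (thick bar). The medians run from -0.15 for known CREB targets to -0.00067 for the kinases and phosphatases, beside 0.02 for all genes. Those of the kinases, CRTC regulators and partners change sign after quantile normalization.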

How the data were processed

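The deposited table holds a signal intensity per probe set on a linear scale for 6 arrays, without detection calls. After hybridization of labelled cRNA, the authors derived these values in GCOS (version not given in the sources used here), and the mean over all probe sets after trimming 2% at each end is 500 in each array. Of 45101 probe sets, 64 controls were left out. Values under 1 (48 in all) were set to 1 before log2. Of the rest, 34945 had 1 symbol in the platform annotation, 932 had several and 9160 had none.

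Glut1-TG and WT were compared by limma 3.58.1 under R 4.3.3, with eBayes moderation along an intensity trend, no covariates and Benjamini-Hochberg adjustment over 13178 genes or over 22551 probe sets past the filter. Probe sets under it were read from a fit over all 34945. The procedure was run on simulated data. The shifts set there were larger than the differences of the representative CREB probe sets, so the run says nothing about changes of that size. Genes named were all members and, from each list of related genes, up to 4 with the lowest p. Members and lists were chosen with earlier results of these data known. Promoters and coordinates come from RefSeq, GRCm38.p6. The alternatives are given in the closing section.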

Additional observations from a re-analysis of the deposited data

How the results depend on the processing

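Under 15 alternatives with an adjusted threshold (quantile normalization, an offset of 50, a block for the replicate number, leaving out each array, testing without a filter or on the upper 40% of probe sets, averaging a gene's probe sets, moderation without trend, adjusted p-values of the methods' t-test, and median centring, which was added after the data were seen), 0 CREB genes and genes of the 5 related lists passed, and 0 CREB probe sets under the 14 that apply to single probe sets. An unadjusted limma p gave 1 CREB gene, 1 CREB probe set, 1 other CREB or ATF factor, 4 CRTC regulators, 3 partners and 2 targets. The methods' t-test at the study's thresholds, on log2 or on linear signal, gave 1 CREB gene, 1 CREB probe set, 1 CRTC regulator and 1 target. Over all genes, 113 passed (34 higher, 79 lower), and 114 (48 higher, 66 lower) after quantile normalization. The count was 4 without trend, 46 by the mean of probe sets, 66 after median centring, 44 to 86 with 1 array left out, 1 by the t-test with adjustment, 1486 at an unadjusted p, and 772 and 777 by the t-test on log2 and linear signal at the study's thresholds. Median centring moved the median of all genes from 0.02 to -0.08. With the replicate number as a block, 69 genes passed. Arrays of the same number correlated at 0.08, -0.03 and 0.05 in their deviations from the group means, and not every array correlated best with its own number. With 3 arrays per group these values cannot decide whether the numbers pair the arrays. The main fit did not pair them.

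Of 141 values of the CREB genes under alternatives, 12 changed sign. No CREB gene had passed in the main fit. Alternatives that changed only the filter, the block, the moderation, the test on log2 signal or the threshold returned the main difference. Values under those alternatives could not change sign, so that the count of 12 is no measure of stability. Creb1 had 0.023 as the mean of its probe sets, some of which lie under the filter. Crtc2 had -0.0070 after quantile normalization and ran from -0.057 to 0.42 with 1 array left out. Ep300 ran from -0.13 to 0.26 with 1 array left out, and had -0.020 on linear signal and -0.079 after median centring. Crem ran from -0.15 to 0.38 with 1 array left out and had -0.016 after median centring. Crem and Crtc2 fell under the filter as the mean of their probe sets, and Crtc2 also under the strict filter, and have no value there. The causes were not tested. Signals near the filter limit Crtc2 and 8 of the 24 probe sets.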

Other observations

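Probe sets of 1 gene can be set beside each other over the 6 arrays, as a description in which the points share array and scaling. The strongest Crem probe sets, 1449037_at and 1418322_at, followed each other closely (Pearson r = 0.95, n = 6 arrays). Those of Crtc3, 1436379_at and 1451778_at, ran opposite (r = -0.76). For Creb1, 1428755_at had r = 0.49 with 1452901_at and -0.62 with 1423402_at, and the latter had 0.75 with 1421583_at, which lies under the filter. The third Crebbp probe set, 1434633_at, had r = -0.19 with 1435224_at and -0.61 with 1436983_at. Which transcripts or exons these probe sets read was not analysed here.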
